A study of Homo sapiens with 2 samples.

Results

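The small heat shock proteins and the BAG cochaperones were described by 9 genes, each with a single probe set on the array. They were the small heat shock protein genes CRYAB, HSPB1, HSPB6 and HSPB8 and the cochaperone genes BAG1, BAG2, BAG3, BAG4 and BAG5, chosen by symbol out of 18417 named genes. RNA came from U251 cells, an established human glioblastoma line, cultured in high-glucose DMEM. Cells received either the solvent DMSO or 5 µM of the Gamitrinib G-TPP for 6 h. G-TPP joins a geldanamycin-type inhibitor of Hsp90 to triphenylphosphonium, a cation that draws it into mitochondria, and the series asks how transcripts respond when mitochondrial Hsp90 is targeted. There was 1 array per condition. The differences therefore had no replicate check and are given without errors or tests, as a description of these 2 arrays.

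Small heat shock proteins bind partly unfolded proteins without using ATP and hold them in a form that can later be refolded or degraded. BAG proteins carry a BAG domain, which binds the ATPase domain of Hsp70 and promotes nucleotide release, so that the client is let go. BAG3 joins both systems, because it binds Hsp70 through its BAG domain and HSPB8 through short motifs elsewhere in the protein, and the complex routes damaged proteins to autophagy. Several of these genes are textbook targets of the heat shock factor HSF1, which is released when Hsp90 and Hsp70 are engaged by unfolded protein or by an inhibitor.

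Intensities are on the linear scale of the deposited table, whose 33297 probe sets had a median of 224.8 with DMSO and 215.5 with G-TPP. A gene was kept for counting if its brighter array reached 239.2, the median of that quantity over all probe sets, and this kept 11091 genes. Their log2 differences, G-TPP minus DMSO, had a median of -0.04, and the middle 90% lay between the 5th percentile of -0.49 and the 95th of 0.74. Olfactory receptor genes, for which little expression would be looked for in glioma cells, served as a guide to array noise at low intensity. The log2 differences of 341 of them had a standard deviation of 0.19 and a largest absolute value of 0.80. Their 95th percentile of intensity, 172.6 with DMSO and 173.6 with G-TPP, was used as the floor. Of the glial and glioma markers CD44 (8013 and 7614) and VIM (7146 and 6494) were bright on the DMSO and G-TPP arrays, the astrocyte filament gene GFAP was little above the floor (245.2 and 231.5), and S100B and AQP4 were under it on both arrays. Of the 10 kept markers in that list 2 were at least 2-fold lower with G-TPP, beside 0.550% of all kept genes. They were SOX2 (4434 and 1629, log2 difference -1.44) and PDGFRA (1592 and 490.1, -1.70). SOX9 had a log2 difference of -0.98. Of the same 10 markers 7 were below 0 and 3 above it, the highest being SLC1A3 (758.8 and 1183, 0.64), and the median was -0.11. The summed intensity of all 14 markers was 25434 with DMSO and 20263 with G-TPP. Their part in the differences of the chaperone genes was not tested.

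Transcripts of 3 of the 9 genes reached 2-fold higher on the G-TPP array, and those of the other 6 did not. The 3 were BAG3, HSPB8 and CRYAB. HSPB6 was too dim to be kept, and of the 8 kept genes none was at least 2-fold lower. CRYAB was kept through its G-TPP value alone, which bears on the count and on the median over kept members. Over all kept genes 2.80% were at least 2-fold higher and 0.550% at least 2-fold lower. The median log2 difference was 0.42 over the 8 kept members and 0.34 over all 9, against -0.04 over all kept genes. The values fell into separate sizes rather than around this median: the 3 highest log2 differences were 2.53 (CRYAB, at least 1.63 when its DMSO value is raised to the floor), 1.91 and 1.49, then came BAG2 at 0.50 and HSPB1 at 0.34, and the other 4 lay between -0.12 and -0.02. Those 4 were smaller in size than the standard deviation of the olfactory receptors, BAG2 and HSPB1 lay within the receptors' widest difference, and the first 3 lay beyond it. The receptors are mostly dim and come from a single pair of arrays. Their spread is thus no replicate noise and sets no limit for brighter genes such as BAG2 and HSPB1. In a bulk sample more transcript per cell and more cells that carry it cannot be told apart.

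**Figure D1:**
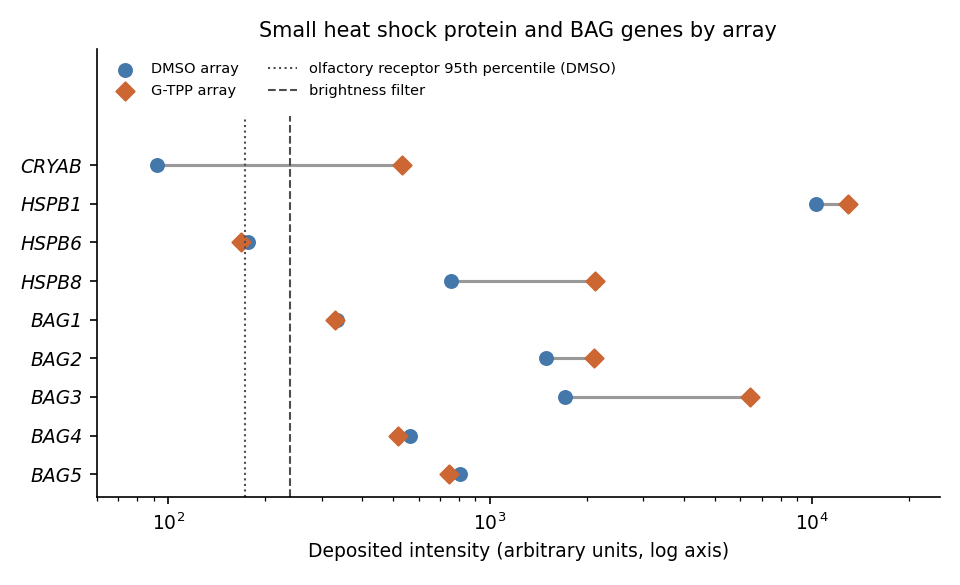
Deposited intensity of each of the 9 genes on the DMSO array (circles) and the G-TPP array (diamonds), on a log axis, with 1 array per condition; the dotted line is the olfactory receptor floor with DMSO (172.6) and the dashed line the brightness filter (239.2). CRYAB starts under the floor and ends at 533.3, BAG3 and HSPB8 move by wide steps well above both lines, and HSPB6 lies at the floor on both arrays.

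Promoter windows from RefSeq (GRCh38.p14) were read to show what precedes these genes, and 7 of the 9 symbols matched 8 windows of 300 bases, each with 250 bases before and 50 after a transcription start. No window was read for CRYAB and BAG4. The heat shock element is built from GAA units in alternating orientation, and a pair of units was searched head to head as GAANNTTC and tail to tail as TTCNNGAA, both of which read the same on either strand. The C/EBP-ATF response element (TGATGNAA), the core of the antioxidant response element (TGACNNNGC) and the AP-1 site (TGANTCA) were searched on both strands, and no matches in the members overlapped one another. The motifs were picked after these sequences had been looked at. Shown here, 5′ to 3′ in the direction of the gene and ending at the base before the transcription start, are HSPB8 (chr12:119178681-119178930, plus strand) and BAG3 (chr10:119651130-119651379, plus strand), whose proteins work as a pair and whose transcripts were both higher, and HSPB1 (chr7:76302423-76302672, plus strand), which was below 2-fold. Capitals mark a motif match.
HSPB8: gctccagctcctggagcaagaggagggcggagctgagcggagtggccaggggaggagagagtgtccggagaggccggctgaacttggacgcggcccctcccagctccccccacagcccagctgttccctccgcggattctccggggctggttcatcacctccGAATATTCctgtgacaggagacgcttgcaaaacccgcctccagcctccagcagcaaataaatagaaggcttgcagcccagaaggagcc
BAG3: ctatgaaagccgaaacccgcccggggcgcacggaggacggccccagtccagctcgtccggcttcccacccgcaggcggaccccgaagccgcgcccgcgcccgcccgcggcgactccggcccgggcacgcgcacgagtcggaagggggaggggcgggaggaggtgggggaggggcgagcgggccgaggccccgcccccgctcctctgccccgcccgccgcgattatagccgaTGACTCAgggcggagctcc
HSPB1: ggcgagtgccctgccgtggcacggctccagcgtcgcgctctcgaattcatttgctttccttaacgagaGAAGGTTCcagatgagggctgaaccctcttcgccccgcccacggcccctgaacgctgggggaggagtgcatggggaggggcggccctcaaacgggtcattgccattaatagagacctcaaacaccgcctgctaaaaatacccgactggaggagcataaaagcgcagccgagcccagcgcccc
In HSPB8 the capitals are GAATATTC, a head-to-head pair at -88 to -81 from the start, and a second such pair, GAAGTTTC, lay downstream at 5 to 12. In BAG3 neither arrangement of the heat shock pair was found in this window, and the capitals are an AP-1 match, TGACTCA, at -19 to -13. In HSPB1 the capitals are the head-to-head pair GAAGGTTC at -182 to -175.

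Members whose transcripts were not 2-fold higher also held the pair, as stretches of 60 bases around the matches show for BAG2 (chr6:57172175-57172234, plus strand) and HSPB6 (chr19:35757200-35757259, minus strand), again with matches in capitals and in the direction of the gene.
BAG2: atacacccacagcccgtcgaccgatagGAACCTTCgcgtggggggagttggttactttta
HSPB6: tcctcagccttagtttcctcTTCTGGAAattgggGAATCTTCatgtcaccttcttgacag
BAG2 has the pair GAACCTTC at -124 to -117. HSPB6 has a tail-to-tail pair, TTCTGGAA, at -210 to -203 and a head-to-head pair, GAATCTTC, at -196 to -189. Either arrangement was present in 4 of the 8 member windows and in 13.5% of all 35116 windows in the table, with 6.77% for the head-to-head form and 7.74% for the tail-to-tail form. The C/EBP-ATF element was in 0 member windows and 3.62% of all windows, the antioxidant core in 2 (HSPB1 and HSPB6) and 13.3%, and the AP-1 site in 1 (BAG3) and 7.71%. The windows of BAG1 and BAG5 held none of these motifs. A match says only that the letters are there, and elements outside these 300 bases were not searched.

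**Figure D2:**
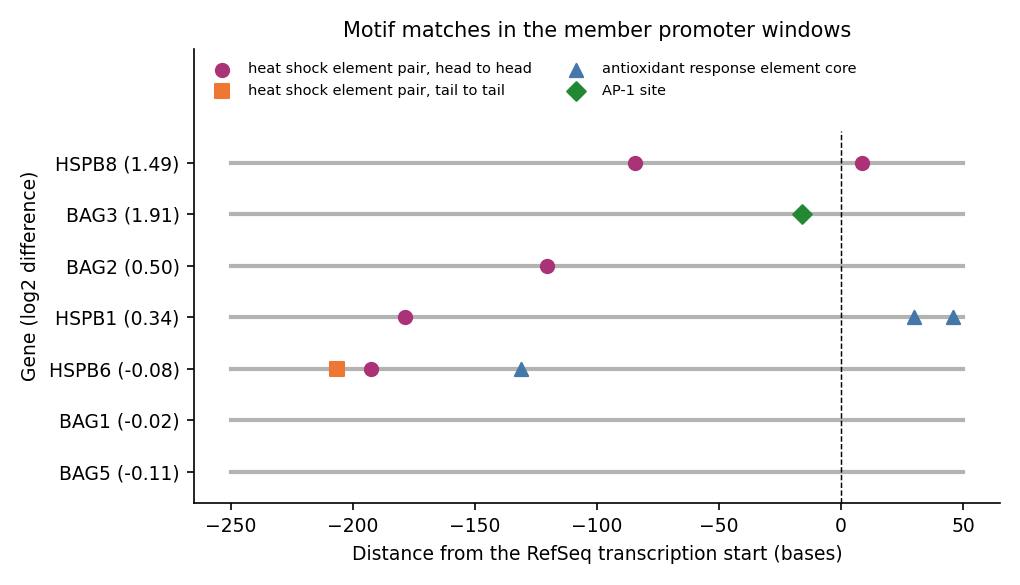
Midpoints of motif matches along the promoter windows of 7 members, in bases from the RefSeq transcription start (dashed line), with each gene's log2 difference in brackets; the 2 windows of BAG5 are drawn as 1 line. Head-to-head heat shock pairs (circles) lie in HSPB8 (1.49), BAG2 (0.50), HSPB1 (0.34) and HSPB6 (-0.08), and the line of BAG3 (1.91) holds an AP-1 match only.

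Among the small heat shock proteins HSPB8, the partner of BAG3 also known as HSP22, was clearly measured on both arrays. Its probe set 7959102 read 754.8 with DMSO and 2114 with G-TPP. The G-TPP value was 2.80-fold higher, a log2 difference of 1.49, and 112 of the 11091 kept genes had a higher one. Its DMSO value was already well over the floor, so the fold does not hang on it.

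CRYAB, which encodes alpha-B-crystallin, a chaperone of the lens, muscle and glia that is often plentiful in gliomas, went from under the floor to above it. Its probe set 7951662 read 92.5 with DMSO, under the floor of 172.6, and 533.3 with G-TPP. The transcript was thus not told from the floor in the control and was plainly above it with G-TPP. Against the floor the gene was at least 3.09-fold higher, a log2 difference of at least 1.63, and 81 kept genes had a higher one when all values were raised to the floor. The deposited values themselves give a log2 difference of 2.53, which rests on that dim reading, so CRYAB has no settled place before or after BAG3. It was kept through its G-TPP value alone. CRYAB is also a lens and muscle gene, and markers of those tissues were read as well. Of 11 muscle markers measured 5 were under the floor on both arrays and none was 2-fold higher, and their summed intensity was 2690 with DMSO and 2479 with G-TPP. Of 8 lens markers 4 were under the floor on both arrays, and their sum was 1380 and 1277. Only 4 muscle and 2 lens markers passed the brightness filter, and many of these readings lie near the floor. Any link of these markers to CRYAB was not tested. HSPB2 lies within the span of CRYAB in the RefSeq table, and it had no probe set of its own name here.

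HSPB1, which encodes HSP27, the small heat shock protein best known for protecting actin filaments, was among the brightest transcripts in both conditions. Its probe set 8133721 read 10281 with DMSO and 12976 with G-TPP, above 99.5% and 99.9% of all probe sets on the respective arrays. The G-TPP value was 1.26-fold higher, a log2 difference of 0.34, which is below 2-fold. A 2-fold difference from its DMSO value would have needed 20562, and the highest value of any probe set with G-TPP was 17912. The same limit holds for all 21 kept genes that were at least as bright with DMSO, so that 0 of them were 2-fold higher carries no information. HSPB1 itself had the highest fold among them. The set was cut at its DMSO value, so it was the dimmest with DMSO and had the most room below the top. Its rank therefore says little. What the top of the scale did to its fold was not tested.

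HSPB6, which encodes HSP20, a small heat shock protein of smooth, skeletal and heart muscle, was at the floor on both arrays. Its probe set 8036151 read 177.1 with DMSO and 168.1 with G-TPP, the second value being under the floor of 173.6, so neither a level nor a fold can be read from it. The other small heat shock genes fixed for comparison looked alike, as HSPB3, HSPB7, HSPB9 and ODF1 were each under the floor on both arrays, between 75.7 and 148.8. Among the 8 small heat shock protein genes with a probe set of their own, those with a value above the filter on either array were HSPB1, HSPB8 and CRYAB.

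Of the BAG genes BAG3 stood apart. BAG3, the stress-inducible member that couples Hsp70 to HSPB8 and selective autophagy, went from an intensity of 1710 (DMSO) to 6435 (G-TPP) in probe set 7930921. That is 3.76-fold higher, a log2 difference of 1.91, with 60 kept genes higher. The value with DMSO was brighter than 89.7% of all probe sets, and with G-TPP brighter than 98.3%, so both ends of the difference lay far from the floor and below the top of the scale.

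BAG2, which inhibits the ubiquitin ligase CHIP on Hsp70-bound clients, was the next of its family. Probe set 8120402 read 1489 with DMSO and 2107 with G-TPP. The ratio was 1.42 and the log2 difference 0.50. It did not reach 2-fold, and 1035 kept genes had a higher difference. It shares its direction with BAG3 but lies inside the spread of most kept genes.

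The other 3 BAG genes gave almost the same reading with and without G-TPP. BAG1, which links Hsp70 to the proteasome and was first found as a partner of BCL2, read 334.4 and 328.9 (probe set 8160647, log2 difference -0.02). BAG4, also called silencer of death domains for its binding to TNF receptor 1, read 563.3 and 517.6 (probe set 8145914, -0.12). BAG5, which has several BAG domains and restrains the ligase Parkin, read 804.6 and 747.1 (probe set 7981439, -0.11). Each of these was above the floor on both arrays, and the interval of such a difference is not known with 1 array per condition. BAG6, a ribosome-associated quality control factor outside the listed members, had 3 probe sets, and each had a log2 difference of 0.06, from 1212 to 1262 in the brighter ones. The family of BAG1 to BAG5 thus had 1 gene at 2-fold higher, 4 between the thresholds and a median log2 difference of -0.02.

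**Figure D3:**
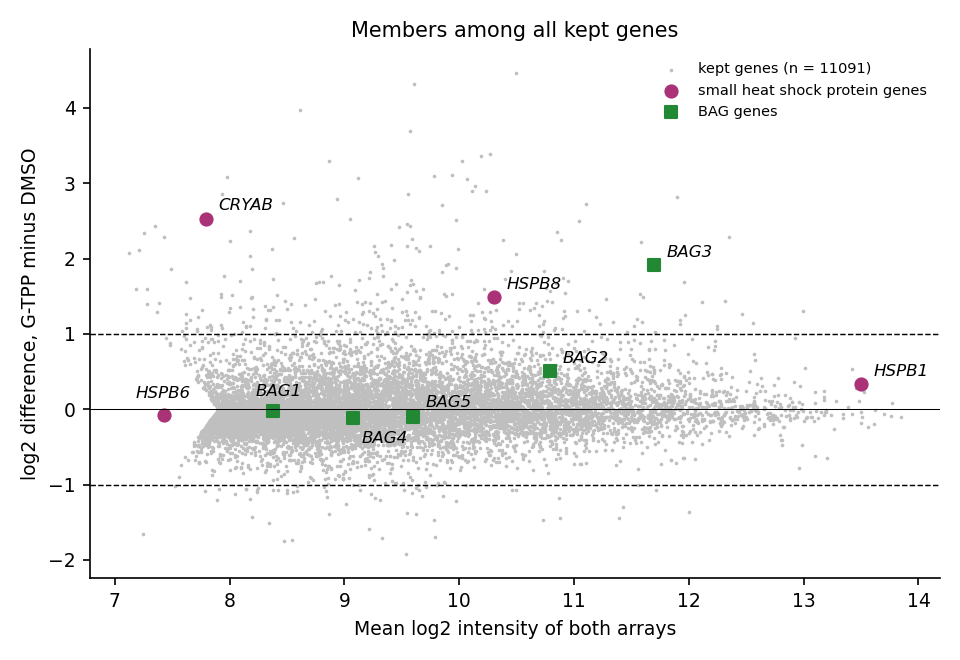
Log2 difference, G-TPP minus DMSO, against mean log2 intensity for the 11091 kept genes (grey), the 4 small heat shock protein genes (circles; HSPB6 is shown although it was not kept) and the 5 BAG genes (squares), with dashed lines at 2-fold. CRYAB (2.53, at least 1.63 against the floor), BAG3 (1.91) and HSPB8 (1.49) lie above the upper line at low, high and middle brightness, and HSPB1 (0.34) lies at the bright end, where few genes depart from 0.

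The genes with the closest log2 difference over the 2 arrays were LRIF1 (1.91) and SLC10A7 (1.93) for BAG3 and ATF3 and GOT1 (1.49 and 1.48) for HSPB8. ATF3 was under the floor with DMSO, and its difference was 1.23 with values raised to the floor. Likeness over a single pair of arrays means only a ratio of equal size.

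BAG proteins act on Hsp70, whose other nucleotide exchange factors were also read. Of 8 such genes 2 were at least 2-fold higher, none was 2-fold lower and the median log2 difference was 0.62. Over all kept genes 2.80% were at least 2-fold higher and 0.550% at least 2-fold lower. HYOU1, an exchange factor of the endoplasmic reticulum, was 2.37-fold higher (1077 and 2555). The Hsp110 gene HSPA4L was 2.09-fold higher (3356 and 7003), and its relative HSPH1 at 5605 and 10759 was 1.92-fold higher, just under the threshold. GRPEL2 of mitochondria was 1.59-fold higher. Its mitochondrial relative GRPEL1 read 1186 and 982.5, a log2 difference of -0.27, the lowest of the list. HSPBP1, an exchange factor of the cytosol that also inhibits CHIP, had a log2 difference of -0.16. BAG3 was thus 3.76-fold higher on arrays where the exchange factor next in fold, HYOU1, was 2.37-fold higher.

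Among the cytosolic Hsp70, Hsp40 and Hsp90 genes that work with these proteins, 5 of 11 kept members were at least 2-fold higher. Over all kept genes that share was 2.80%. None of the 11 was 2-fold lower, and their median log2 difference was 0.94. The stress-inducible HSPA6 was 22.01-fold higher (307.1 and 6761), though it has near-identical relatives that may share its probes. The Hsp70 genes HSPA1A and HSPA1B had no probe set of their own name and are not among the 11. DNAJB4 (5.64-fold) and DNAJB1 (4.89-fold), both Hsp40 genes, came next. A further Hsp40 gene, DNAJB6, was 2.15-fold higher in the brighter of its probe sets (3306 and 7096), and the dimmer gave a log2 difference of 1.29. The constitutive Hsp70 gene HSPA8 read 13633 and 14378 (log2 difference 0.08), and 2 times its DMSO value also exceeds the highest G-TPP value. The transcript of HSF1 itself read 945.9 and 779.9 (log2 difference -0.28), HSF4 read 280.8 and 241.4, and HSBP1, which binds HSF1, read 965.7 and 1127. None of these 3 reached 2-fold, and activity of HSF1 is set on the protein and is not measured by its transcript.

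Partners of BAG3 and HSPB8 in selective autophagy had 3 of 12 kept genes at 2-fold higher, beside 2.80% of all kept genes. None was 2-fold lower, and the median log2 difference was 0.35. The 3 were the autophagosome genes GABARAPL1 (419.9 and 2395, 5.70-fold), WIPI1 (317.7 and 1753, 5.52-fold) and MAP1LC3B (204.5 and 510.6, 2.50-fold). MAP1LC3B was kept through its G-TPP value alone, as its DMSO value lay above the floor but under the brightness filter. The cargo receptor gene SQSTM1, whose protein p62 receives the clients of BAG3, read 2193 and 3207, 1.46-fold higher. STUB1, which encodes the ligase CHIP, read 742.9 and 663.1 (log2 difference -0.16). In this list the genes at 2-fold thus belonged to the autophagosome, and the ligase and receptor that hand over the client did not reach it.

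Partners of the other BAG proteins had 0 of 7 kept genes at 2-fold in either direction and a median of 0.10, with HSPA9 at 0.41 and TNFRSF1A, the receptor bound by BAG4, at 0.29. Kinases that act on HSPB1 had 0 of 6 at 2-fold and a median of -0.03. MAPKAPK2, its main kinase, had a log2 difference of -0.10, MAPKAPK3 of -0.37 and PRKD1, which encodes protein kinase D1, of 0.82. Filament genes, whose products are clients of the small heat shock proteins, had 0 of 11 at 2-fold, 9 below 0 and a median of -0.15. NES had a log2 difference of -0.50, SYNM of 0.34, DES of -0.33 and KRT8 of -0.26, and VIM and ACTB had -0.14 and -0.11. Over all kept genes 2.80% were at least 2-fold higher and 0.550% at least 2-fold lower. Counts of 0 in lists this short therefore say little about the partners, kinases or filament genes.

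**Figure D4:**
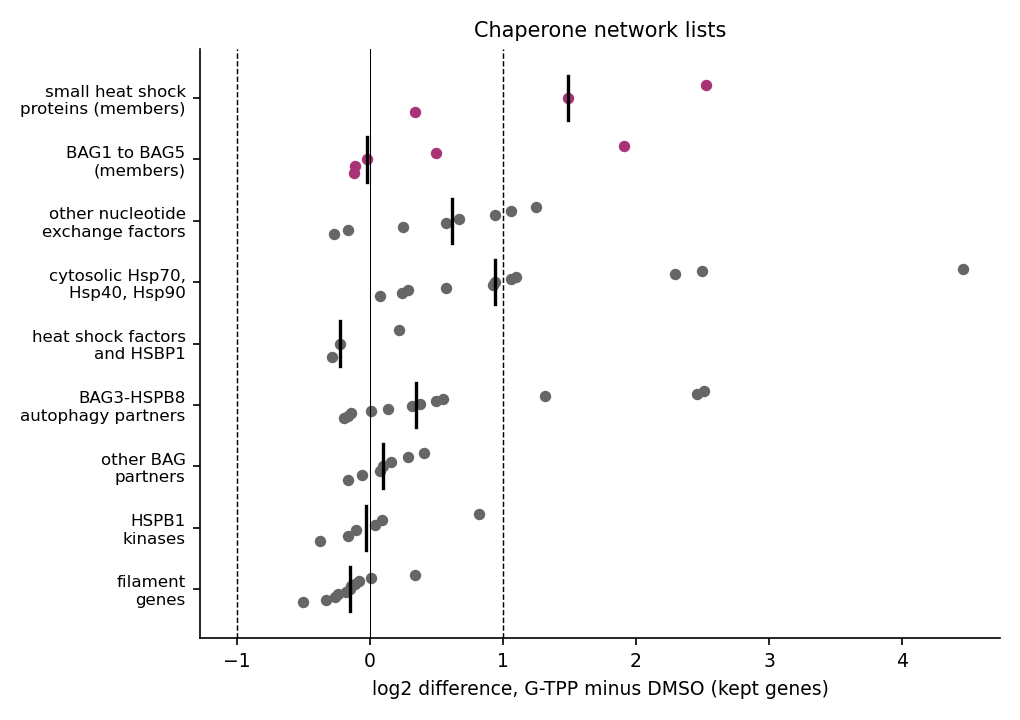
Log2 difference, G-TPP minus DMSO, of each kept gene (points) in 9 lists of the chaperone network, with the list median as a vertical bar and dashed lines at 2-fold; some genes belong to more than 1 list. Small heat shock proteins (median 1.49 over the 3 kept genes and 0.91 over all 4) and BAG1 to BAG5 (median -0.02) each hold points beyond the upper line. CRYAB was kept through its G-TPP value alone. The exchange factors, the cytosolic chaperones and the autophagy partners also hold such points. The heat shock factors, other partners, kinases and filament genes hold none. Those lists are short, and 2.80% of all kept genes were at least 2-fold higher, so having none says little.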

How the data were processed

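The labelled input was 6 µg of total RNA per array, per the labels' protocols. The deposited values are 1 linear intensity per probe set and array, made with RMA (Affymetrix Expression Console 1.1.2), per the submitters' processing notes. RMA usually makes the intensity distributions of arrays alike, which hides a change in total RNA per cell, but the arrays in that run and the step back to linear values are unstated in the labels. Scanner files were not used here.

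Of 33297 probe sets, 19460 carried a single symbol in the platform's annotation, with symbols updated by gene ID from RefSeq (GRCh38.p14). They gave 18417 genes, and the probe set of highest mean intensity stood for a gene with several. Log2 was taken with no pseudocount, and the 2-fold threshold, brightness filter and receptor floor are those defined above. With 1 array per group no test was possible and the number of arrays limits the precision. A percentile among probe sets places a value on the array's scale, and does not compare transcript amounts, because probes differ. The steps were run on simulated arrays with planted changes well over the threshold and less spread than the kept genes here. That checks the code and does not bear on the calls for single genes.

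Named were all 9 members, up to 4 kept genes per pathway list with the largest absolute difference, a set of partner genes, and 2 genes closest in difference to BAG3 and to HSPB8; CRYAB was left out of the last because its DMSO value was under the floor. GRPEL1 and other genes given as markers or floor readings were chosen after their values were seen. Members and lists were chosen with earlier results of these data known. Alternatives covered thresholds, filters, centring, probe set choice, a pseudocount of 16 and the floor. The work used Python 3.11.15 (pandas 2.3.3, numpy 2.4.6, matplotlib 3.10.9, statsmodels 0.14.6).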

Additional observations from a re-analysis of the deposited data

How the results depend on the processing

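The count of 3 members at 2-fold higher was the same under 10 of 12 alternatives, as were the genes, BAG3, HSPB8 and CRYAB. Among these 10 was a threshold of 1.5-fold, which 7.37% of all kept genes reached in the higher direction. Part of this agreement was fixed in advance. Each member has a single probe set, so the alternatives on probe set choice could not change it. Dropping the filter or lowering the threshold could add members but not remove any. At the 75th percentile filter the count was 2 of 5 kept members, because CRYAB was no longer kept, beside 4.36% of all genes kept there. At a 3-fold threshold it was 2, without HSPB8, beside 0.875% of all kept genes. The count lower was 0 under all 12. The members' median log2 difference ranged from 0.34 with no brightness filter to 0.50 at the 75th percentile filter. Under the 7 alternatives that were run on single genes, BAG3 lay between 1.90 and 1.97, HSPB8 between 1.46 and 1.54 and HSPB1 between 0.34 and 0.39. The probe set choices could not move a gene with a single probe set. The floor could not move BAG3, HSPB8 or HSPB1, which lay above it on both arrays. These ranges thus come from the centring, normalization and pseudocount settings only. CRYAB was 1.63 with values raised to the olfactory receptor floor, against 2.53 as deposited. BAG1 and HSPB6 crossed 0 with centring, at up to 0.06 and 0.01, so neither has a direction. The alternatives were also run for 48 other genes, including those the text names with values except GRPEL1. Of these 47 stayed on the same side of 2-fold, and SOX9 passed it with quantile normalization (-1.01). Leaving out an array was not possible, and no paired analysis was possible because each group has 1 array. Signal over background limits CRYAB with DMSO and HSPB6 on both arrays.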
